A study of Mus musculus with 2 samples.

Results

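The genes described here encode the enzymes and transporters by which macrophages make itaconate, nitric oxide, ornithine and polyamines. They were chosen by symbol and are Acod1, Nos2, Gch1, Ass1, Arg1, Arg2, Slc7a2, Odc1, Azin1 and Sat1, 10 of the 34745 gene identifiers in the deposited table. RNA sequencing was done on primary bone marrow-derived macrophages of C57BL/6 mice. One group was transfected with a control antisense oligonucleotide (Control-ASO) and the other with an antisense oligonucleotide named for Acly, the gene of ATP-citrate lyase (AclyE14-ASO). Both groups were given lipopolysaccharide (LPS), which is part of the bacterial outer membrane and is sensed by TLR4, so the level of these genes without LPS was not analysed here. The dose and time of LPS, the age and number of the mice, and the sequence of either oligonucleotide were not stated in the descriptions available. Each group is 1 library.

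Macrophages that sense LPS divert citrate-derived cis-aconitate to itaconate, a metabolite that inhibits succinate dehydrogenase and modifies proteins such as KEAP1. They also take up arginine, which inducible nitric oxide synthase turns into nitric oxide and citrulline with tetrahydrobiopterin as cofactor, and which arginase turns into ornithine and urea. Ornithine decarboxylase makes putrescine from ornithine, the first step of polyamine synthesis, and is held in check by antizyme, which in turn is bound by antizyme inhibitor.

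Because there is 1 library per group, no test was run and p-values are absent; replicates that could check a difference are lacking. A difference between the libraries can include differences between single cultures. Levels are FPKM, fragments per kilobase of gene length scaled to library size, as deposited. Ratios are AclyE14-ASO over Control-ASO, of counts per library total, with exact (Clopper-Pearson) 95% intervals that cover counting error only: without molecular identifiers, reads cannot be taken as independent molecules. A gene was counted as measured at a mean of at least 1 FPKM over both libraries, and called higher or lower at 1.5-fold or more on FPKM + 1, which understates the change of low genes. The Control-ASO library held 14215397 gene counts and the AclyE14-ASO library 12751076, and 8658 genes were measured. Acly itself had 1549 counts with Control-ASO and 768 with AclyE14-ASO, a ratio of 0.553 (interval 0.506 to 0.603). Of 12 macrophage markers 11 were measured, with 2 higher, 1 lower and 8 between, and Cx3cr1 was listed at 0 counts in both libraries. Their summed levels of 20368 FPKM and 25004 FPKM were mostly Lyz2 and Ctss. Cd14 (ratio 2.23) and Fcgr1 (1.96) were the higher markers and Cd68 (0.557) the lower one, while Adgre1 (0.795), Csf1r (0.784) and Spi1 (0.791) lay under 1 within 1.5-fold. Of 16 fibroblast and stromal markers 12 were measured, all 12 of them higher with AclyE14-ASO, and 8 of the 16 reached 1 FPKM with Control-ASO. Col6a1, Pdgfra, Thy1 and Serpinf1 were under 1 FPKM with Control-ASO, so they were measured only through the library where they were high. Lum, with 6 counts in each library, was not measured. The summed level of the 16 markers was 53.3 FPKM with Control-ASO and 247 FPKM with AclyE14-ASO, and 0 of them had no count in both libraries. In such bulk samples fewer cells of a type and less RNA per cell cannot be told apart.

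All 10 genes were measured, and each reached 1 FPKM in both libraries. Only Odc1 was higher and only Azin1 was lower by 1.5-fold, and the other 8 lay between. Among all measured genes 7.03% were higher and 8.48% were lower, so 1 gene in each direction among 10 is near the background. These shares are also the background for the related gene lists and the marker lists. At 2-fold, 0 of the 10 genes were called, beside 3.18% of all measured genes higher and 1.55% lower. Centring all log2 ratios on the median gene changed the 1.5-fold background to 9.83% higher and 4.69% lower. The higher genes then made up 67.7% of those called at 1.5-fold in place of 45.3%. The median log2 ratio of the 10 genes was 0.11, beside -0.13 over all measured genes. By counts, 7 of the 10 had ratios over 1 and 3 had ratios under 1. The counting interval lay inside 1.5-fold for 7 genes, spanned that limit for Nos2 and lay beyond it for Odc1 and Azin1.

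**Figure D1:**
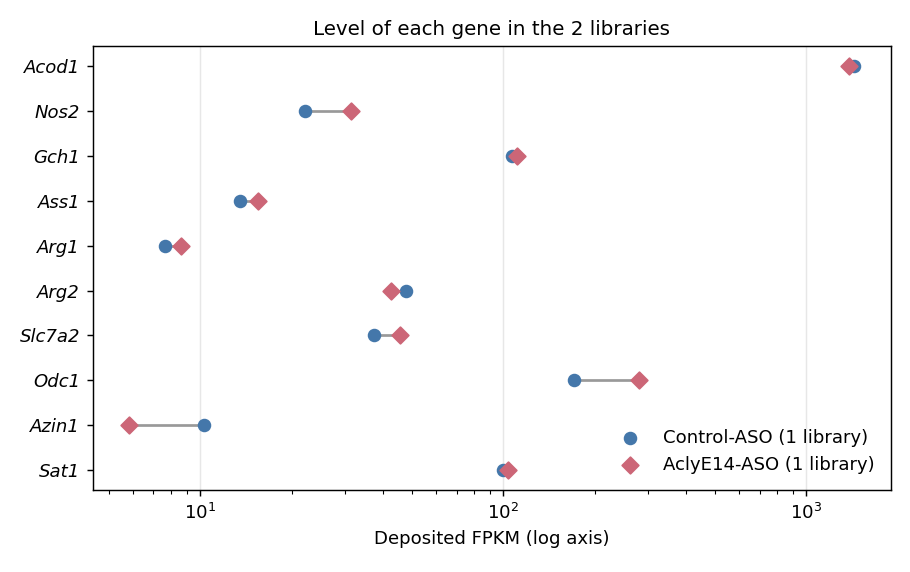
Deposited FPKM of each gene (log axis) in the Control-ASO library (circles) and the AclyE14-ASO library (diamonds), 1 library each, with a grey line joining both values. Odc1 lies to the right and Azin1 to the left in the AclyE14-ASO library, and Acod1 stands far above the other genes in both.

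Promoter sequences were found in the RefSeq table (GRCm38.p6) for 5 of the 10 genes, Acod1, Odc1, Gch1, Ass1 and Sat1. There was no entry for Nos2, Arg1, Arg2, Slc7a2 or Azin1. The sequences of Odc1, the only gene called with an entry, and of Acod1, the most abundant gene, are shown because they set a gene past the size limit beside one that was not. Each begins 250 bases before the RefSeq start and stops where GENCODE M21 or RefSeq begins the transcript. Capitals mark matches to an NF-kB-like motif (GGG, any 5 bases, then CC) on either strand.
Odc1, chr12:17544623-17544793, plus strand, GRCm38.p6: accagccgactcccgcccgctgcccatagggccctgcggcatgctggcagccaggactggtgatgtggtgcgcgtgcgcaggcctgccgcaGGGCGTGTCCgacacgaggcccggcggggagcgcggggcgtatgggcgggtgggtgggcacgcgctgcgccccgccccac
Acod1, chr14:103046762-103046976, plus strand, GRCm38.p6: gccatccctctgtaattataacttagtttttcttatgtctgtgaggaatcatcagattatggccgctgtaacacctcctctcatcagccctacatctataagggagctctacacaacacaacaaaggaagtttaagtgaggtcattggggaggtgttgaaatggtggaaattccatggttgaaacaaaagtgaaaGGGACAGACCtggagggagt

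Both stretches held 1 match to this motif, and its part in the Odc1 difference was not tested. Over the full windows of 300 bases, 250 before and 50 after the start, the motif was in 4 of the 5 promoters, all but that of Sat1, and in 50.8% of all 32851 promoters of the same length. TATAAA was in the windows of Acod1 and Gch1 and in 13.6% of all promoters. The E-box CACGTG was in the window of Ass1 and in 7.15% of all. The ISRE-like motif (GAAA, any 2 bases, then GAAA), the GAS-like motif TTCNNNGAA and the AP-1-like motif TGANTCA were in 0 of the 5 windows, and in 3.44%, 8.30% and 7.81% of all promoters. All motifs were searched on both strands. The NF-kB-like matches of Ass1 overlapped each other in part, and no other motifs overlapped. These are descriptions of letters in a window, not of bound sites.

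Acod1 encodes the mitochondrial enzyme that decarboxylates cis-aconitate to itaconate. Its level (ENSMUSG00000022126, chr14:103046977-103056573, plus strand) was 1438 FPKM from 53604 counts with Control-ASO and 1384 FPKM from 46276 counts with AclyE14-ASO. The ratio was 0.962 (0.951 to 0.974), a difference of -3.76% that is small beside the 1.5-fold limit, although this gene's counting error is smaller still. Acod1 ranked 29 by FPKM among all genes with Control-ASO and 36 with AclyE14-ASO, and took 0.377% and 0.363% of all gene counts. It made up 73.6% of the summed FPKM of the 10 genes with Control-ASO and 68.3% with AclyE14-ASO. Its log2 ratio of -0.06 lay above 58.9% of measured genes, and centring on the median gene turned its sign, to 0.07.

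Genes that supply, use or carry itaconate and its precursors were mostly within 1.5-fold. Of 14 listed genes 12 were measured, with 1 higher, 1 lower and 10 between, and the median log2 ratio was -0.22. The genes called were 8.33% in each direction, beside 7.03% higher and 8.48% lower among all measured genes. The higher gene was Sdhb, the iron-sulfur subunit of succinate dehydrogenase, the enzyme that itaconate inhibits, at 19.6 and 37.0 FPKM (ratio 1.89, 1.72 to 2.08). The other subunits of that enzyme did not follow it past 1.5-fold: Sdha was at 35.9 and 24.9 FPKM (ratio 0.693), Sdhc at 16.0 and 21.2 FPKM (ratio 1.32) and Sdhd at 103 and 82.6 FPKM (ratio 0.802). Oxgr1, a G protein-coupled receptor that itaconate has been reported to activate, was listed at 0 counts in both libraries.

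Genes that respond to itaconate or to its target KEAP1 moved in both directions. All 8 were measured, with 1 higher, 2 lower and 5 between, and a median log2 ratio of -0.33. That is 12.5% higher and 25% lower, beside 7.03% and 8.48% of all measured genes, and 1 gene of this short list is 12.5%. Nqo1, a quinone reductase under the control of NRF2, had 94 and 422 counts, a ratio of 5.005 (3.99 to 6.33). Gclc, the catalytic subunit of the first enzyme of glutathione synthesis, had 265 and 85 counts (ratio 0.358, 0.277 to 0.458), and Hmox1, heme oxygenase 1, had 3263 and 1676 counts (ratio 0.573, 0.540 to 0.608). By counts Gclm, the regulatory subunit of the same enzyme as Gclc, was lower past 1.5-fold too (216 and 123 counts, ratio 0.635, 0.505 to 0.796), and Nfe2l2, the gene of NRF2, had a ratio of 0.702 (0.656 to 0.751). Nqo1 thus differed in direction from these other genes. Atf3, a stress-induced transcription factor that itaconate derivatives induce, was at 249 and 247 FPKM. The part of the stromal RNA in the Nqo1 difference was not tested.

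Nos2 encodes inducible nitric oxide synthase. Its level (ENSMUSG00000020826, chr11:78920787-78960254, plus strand) was 22.2 FPKM from 1321 counts with Control-ASO and 31.4 FPKM from 1676 counts with AclyE14-ASO. The ratio of 1.41 (1.32 to 1.52) spanned the 1.5-fold limit, and the log2 ratio of 0.48 lay above 90.9% of measured genes. Nos2 was called higher when ratios were centred on the median gene (log2 ratio 0.61) and under no other setting tried.

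Gch1 encodes GTP cyclohydrolase 1, the first and rate-limiting enzyme of tetrahydrobiopterin synthesis. Its level (ENSMUSG00000037580, chr14:47153895-47189413, minus strand) was 107 FPKM from 4215 counts and 111 FPKM from 3931 counts. The ratio of 1.04 (0.995 to 1.09) held 1. This depends on scaling to library totals: the log2 ratio of 0.06 became 0.16 with TMM factors, 0.16 with median-of-ratios size factors and 0.18 when centred on the median gene, shifts larger than the counting error. Gch1 was 4.82 times as high as Nos2 by FPKM with Control-ASO and 3.54 times with AclyE14-ASO, since Nos2 differed more between the libraries than Gch1. Both multiples depend on the gene length used, as described below.

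Other genes of tetrahydrobiopterin and nitric oxide handling differed in both directions. Of 19 listed genes 18 were matched and 12 measured, with 1 higher, 0 lower and 11 between, and a median log2 ratio of 0.03. The higher gene is 8.33% of those measured, beside 7.03% higher and 8.48% lower among all measured genes. The most abundant was Calm2, a gene for calmodulin, which is a tightly bound subunit of Nos2, at 101 and 112 FPKM. The higher gene was Ddah2, of the family that breaks down methylated arginines which inhibit nitric oxide synthases, with 33 and 105 counts (ratio 3.55, 2.38 to 5.42). It was low, at 0.999 and 3.54 FPKM, was measured only through its level with AclyE14-ASO, and stromal markers were higher in the same library (53.3 and 247 FPKM); their part in it was not tested. By counts without a pseudocount, Adh5, which also breaks down S-nitrosoglutathione (1194 and 700 counts, ratio 0.654, 0.595 to 0.718), and Spr, the last enzyme of tetrahydrobiopterin synthesis (193 and 113 counts, ratio 0.653, 0.513 to 0.828), were lower past 1.5-fold too. Nos1, which encodes the neuronal synthase, was listed at 0 counts in both libraries, as were Gchfr and Pcbd1.

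Ass1 encodes argininosuccinate synthase, which returns citrulline to the arginine pool. Its level (ENSMUSG00000076441, chr2:31470207-31520672, plus strand) was 13.5 FPKM from 569 counts and 15.5 FPKM from 583 counts, a ratio of 1.14 (1.02 to 1.28). This value is uncertain. The pseudogene Gm5424 is 99.5% identical to an Ass1 transcript over 1240 aligned bases and was listed with more counts than Ass1 itself, 878 and 929. The rule for assigning reads that fit both is not stated. Summed over both, the counts gave a ratio of 1.16 (1.08 to 1.25), near that of Ass1 alone. The sum cannot show whether the split affects the Ass1 ratio, because sharing reads out between both genes would itself bring their ratios together. The level of Ass1 depends on the split.

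**Figure D2:**
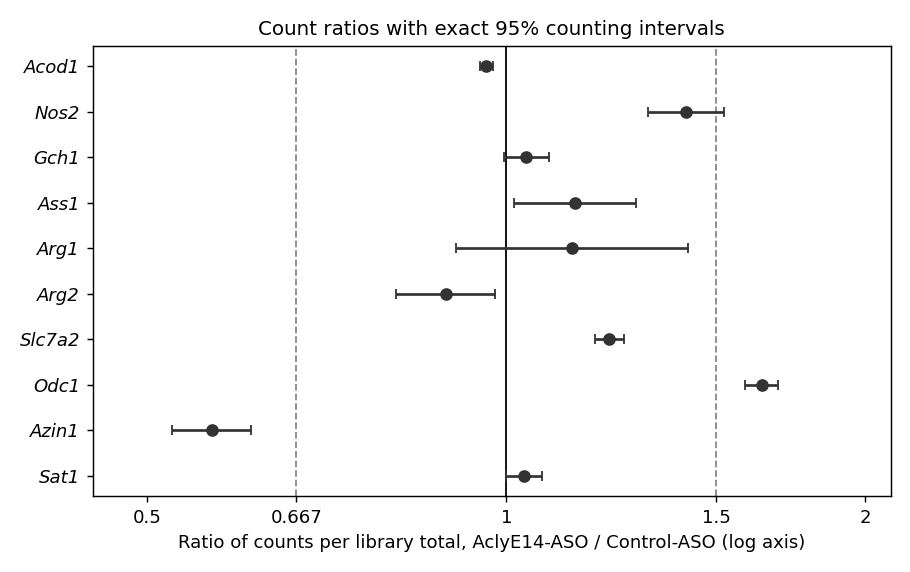
Ratio of counts per library total, AclyE14-ASO over Control-ASO (log axis), for each gene, with exact 95% counting intervals as bars. The solid line is no difference and the dashed lines are 1.5-fold in either direction; only Odc1 and Azin1 lie wholly beyond a dashed line, and the bar of Nos2 crosses one.

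Arg1 and Arg2 encode the cytosolic and the mitochondrial arginase. Arg1 (ENSMUSG00000019987, chr10:24915221-24927484, minus strand) was the lowest of the 10 genes with Control-ASO, at 7.63 FPKM from 160 counts, and was at 8.66 FPKM from 163 counts with AclyE14-ASO. Its ratio of 1.14 (0.908 to 1.42) held 1, and its interval was the widest of the 10. Arg2 (ENSMUSG00000021125, chr12:79130777-79156301, plus strand) was at 47.8 FPKM from 970 counts and 42.5 FPKM from 774 counts, a ratio of 0.890 (0.808 to 0.979). Arg2 was thus the more abundant arginase transcript in both libraries, by 6.27 times and 4.91 times on the FPKM scale. How far the Arg2 ratio lay from 1 depended on scaling to library totals. Its log2 ratio of -0.17 became -0.07 with TMM factors, -0.06 with median-of-ratios size factors and -0.04 when centred on the median gene.

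The exons of Arg2 share 285 bases with those of Vti1b on the opposite strand. Vti1b had 901 and 923 counts, a ratio of 1.14, opposite in direction to Arg2. The labels name a stranded kit, but whether counting used the strand is not given, so reads in the shared bases may have gone to either gene. Summed over both genes, the counts gave a ratio of 1.01 (0.946 to 1.08).

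Slc7a2 encodes CAT2, the cationic amino acid transporter through which activated macrophages take up arginine. Its level (ENSMUSG00000031596, chr8:40862396-40922308, plus strand) was 37.4 FPKM from 9863 counts and 45.6 FPKM from 10798 counts. The ratio of 1.22 (1.19 to 1.25) was well inside 1.5-fold, and its log2 ratio of 0.28 lay above 84.3% of measured genes. By raw counts it was the second of the 10 genes with Control-ASO, behind Acod1, and its gene model is the longest of the 10.

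Of 24 other genes of arginine and citrulline transport and conversion 12 were measured, with 1 higher, 1 lower and 10 between, and a median log2 ratio of -0.04. The genes called were 8.33% in each direction, beside 7.03% higher and 8.48% lower among all measured genes. The most abundant were Slc3a2, the heavy chain shared by several amino acid transporters (145 and 155 FPKM), and Slc7a8, one of its light chains (44.9 and 53.7 FPKM). Castor1, an arginine sensor of the mTORC1 pathway, was lower, with 50 and 13 counts (ratio 0.290, 0.144 to 0.542), and was measured only through its level with Control-ASO (2.23 and 0.648 FPKM). Gatm, the first enzyme of creatine synthesis from arginine, was higher, with 34 and 94 counts (ratio 3.08, 2.06 to 4.71), and was measured only through its level with AclyE14-ASO (0.704 and 2.17 FPKM). Stromal markers were higher in the same library (53.3 and 247 FPKM), and their part in the Gatm difference was not tested. The urea cycle genes Otc and Cps1 were listed at 0 counts in both libraries.

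With scaling to library totals, the branch from ornithine to proline and collagen modification was within 1.5-fold. Of 10 listed genes 9 were matched and 6 measured. On FPKM + 1, 0 were higher and 0 lower, beside 7.03% and 8.48% of all measured genes. By counts without a pseudocount, also 0 were past the limit. The median log2 ratio was -0.13, beside -0.13 over all measured genes. When centred on the median gene, 1 gene of this branch was higher, beside 9.83% of all measured genes. Oat, ornithine aminotransferase, was at 28.0 and 19.6 FPKM (ratio 0.701), and P4hb, a subunit of prolyl 4-hydroxylase and a protein disulfide isomerase, at 84.1 and 116 FPKM (ratio 1.38).

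**Figure D3:**
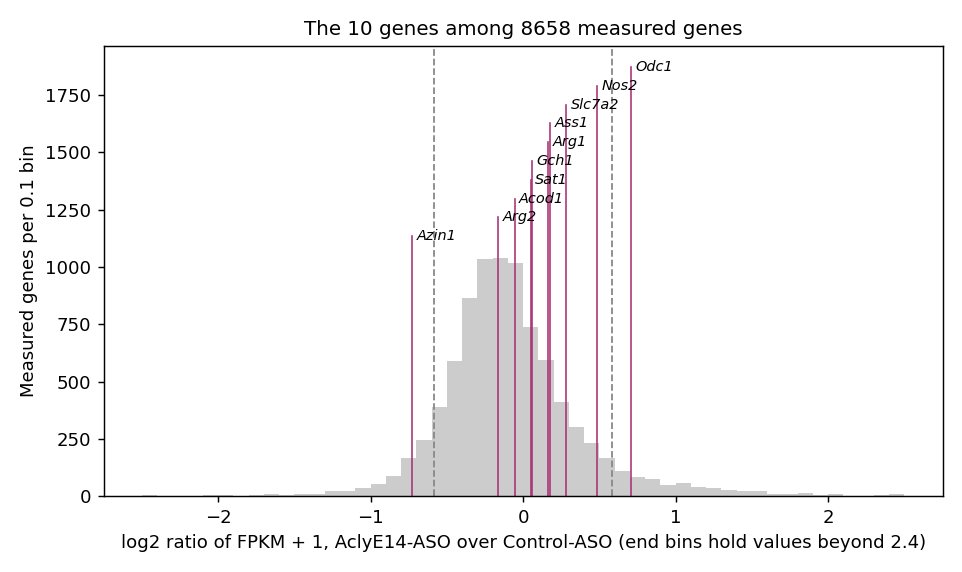
Number of measured genes (8658) per 0.1 bin of log2 ratio (FPKM + 1 with AclyE14-ASO over FPKM + 1 with Control-ASO), with each of the 10 genes as a vertical line. Dashed lines mark 1.5-fold; Odc1 lies above 94.5% of measured genes and Azin1 above 4.45%.

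Odc1 encodes ornithine decarboxylase, the rate-limiting enzyme of polyamine synthesis, and was the gene with the largest ratio of the 10. Its level (ENSMUSG00000011179, chr12:17544794-17551505, plus strand) was 171 FPKM from 6178 counts with Control-ASO and 279 FPKM from 9073 counts with AclyE14-ASO. The ratio was 1.64 (1.58 to 1.69) and the log2 ratio 0.71, above 94.5% of measured genes. It ranked 287 by FPKM among all genes with Control-ASO and 179 with AclyE14-ASO. Of 458 genes averaging at least 100 FPKM, 9.39% were higher by 1.5-fold, so a difference of this size was not rare among genes as abundant. In GENCODE M21, 19 other genes had a transcript at least 90% identical to one of Odc1 over 200 bases or more. Only 2 of them were in the table, with 23 and 24 counts for AW146154 and 0 in both libraries for Gm15645, and adding them left the ratio at 1.64.

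Azin1 encodes antizyme inhibitor 1, a catalytically inactive relative of ornithine decarboxylase that binds antizyme and so spares the enzyme from degradation. Its level (ENSMUSG00000037458, chr15:38487427-38519266, minus strand) was 10.3 FPKM from 2004 counts with Control-ASO and 5.81 FPKM from 1018 counts with AclyE14-ASO. The ratio was 0.566 (0.525 to 0.611) and the log2 ratio -0.73, with 4.45% of measured genes below it. Of 2830 genes averaging 5 to 20 FPKM, 10.6% were lower by 1.5-fold. An antisense gene, Gm49077, shares 358 exonic bases with Azin1 and has no row in the table.

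Odc1 and Azin1 therefore differed between the libraries in opposite directions. By FPKM, Odc1 was 16.6 times as high as Azin1 with Control-ASO and 48.1 times with AclyE14-ASO. By counts, which carry no length, the multiples were 3.08 and 8.91. Macrophage markers differed in both directions (2 higher, 1 lower and 8 between) and stromal markers summed to 53.3 and 247 FPKM in these libraries, and their part in either difference was not tested.

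Sat1 encodes spermidine/spermine N1-acetyltransferase 1, which uses acetyl-CoA to acetylate polyamines for export or breakdown. Its level (ENSMUSG00000025283, chrX:155213132-155216449, minus strand) was 99.7 FPKM from 6937 counts and 103 FPKM from 6438 counts. The ratio was 1.03, with an interval from just under 1 to 1.07, and its log2 ratio of 0.05 became 0.15 with TMM factors, beyond that counting error. Of the polyamine genes among the 10, 1 was thus higher, 1 lower and 1 between. Among all measured genes 7.03% were higher and 8.48% lower.

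None of the other measured polyamine genes passed 1.5-fold. Of 19 listed genes 12 were measured, with 0 higher and 0 lower on FPKM + 1 and 0 past the limit by counts. On FPKM + 1, 7.03% of all measured genes were higher and 8.48% lower, so few calls would be looked for among 12. The median log2 ratio of the 12 was -0.22. The most abundant were Eif5a, the translation factor that carries the spermidine-derived residue hypusine (65.4 and 56.5 FPKM), and Smox, spermine oxidase (21.7 and 26.1 FPKM). Genes that act directly beside Odc1 and Azin1 were looked at after their values were seen. The antizyme gene Oaz1 had 902 and 589 counts (ratio 0.728, 0.655 to 0.809) and Oaz2 530 and 405 counts (ratio 0.852, 0.747 to 0.971). The spermidine synthase gene Srm had 218 and 260 counts (ratio 1.33, 1.11 to 1.60). Amd1, which provides the aminopropyl donor, had 195 and 136 counts (ratio 0.778, 0.620 to 0.973).

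**Figure D4:**
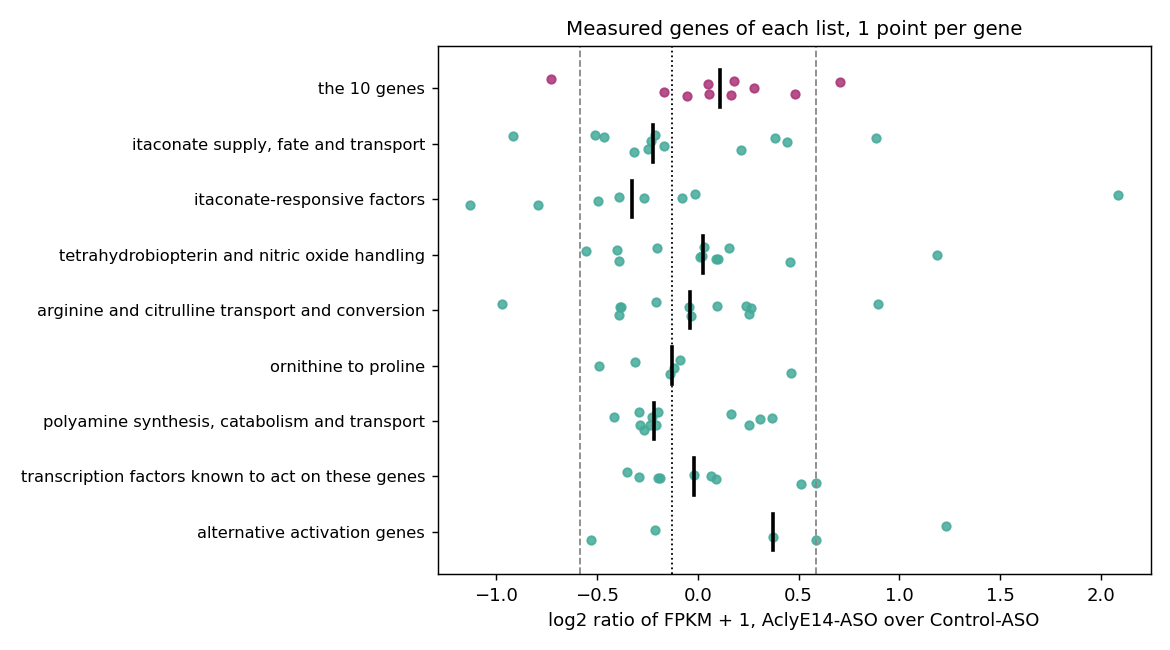
Ratio on the log2 scale (FPKM + 1 with AclyE14-ASO over FPKM + 1 with Control-ASO) of each measured gene (1 point per gene) in the 10 genes and in 8 related lists, with the list median as a black bar. Dashed lines mark 1.5-fold and the dotted line the median of all measured genes (-0.13); the polyamine and proline lists and the transcription factor list have no point beyond the dashed lines.

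Of 10 listed transcription factors known to act on these genes 9 were measured, with a median log2 ratio of -0.02. On FPKM + 1, 0 were higher and 0 lower, beside 7.03% and 8.48% of all measured genes. With centring, TMM factors or median-of-ratios size factors, 2 of these transcription factors were higher. The shares of all measured genes higher were then 9.83%, 8.73% and 8.76%. Irf1, which takes part in the induction of Nos2, was at 147 and 128 FPKM, and Cebpb, which acts on Arg1 and other myeloid genes, at 98.2 and 140 FPKM (ratio 1.43). By counts Stat3, which transmits signals of IL-6 and IL-10, was past the limit, with 2700 and 3733 counts (ratio 1.54, 1.47 to 1.62), and on FPKM + 1 it fell just short of it.

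Genes of alternative activation, the setting in which Arg1 is best known, were mostly low. Of 11 listed genes 5 were measured, with 2 higher, 0 lower and 3 between, beside 7.03% higher and 8.48% lower among all measured genes. The median log2 ratio of 0.37 was the value of Retnla, which had only 11 and 15 counts (ratio 1.52, 0.652 to 3.66). Mrc1, the mannose receptor, was at 27.3 and 18.6 FPKM (ratio 0.681). Il4ra, the receptor chain for IL-4 and IL-13, was at 7.87 and 12.3 FPKM (ratio 1.57, 1.45 to 1.70). Ccl17 had 2 and 13 counts (ratio 7.25, 1.64 to 66.1) and was measured only through its level with AclyE14-ASO (0.274 and 1.99 FPKM); 4 of the 11 genes reached 1 FPKM with Control-ASO. Over the 8 related lists together, without the 10 genes, 6 of 76 measured genes were higher and 4 were lower, 7.89% and 5.26% beside backgrounds of 7.03% and 8.48%. Of the 6 higher genes 3 (Gatm, Ddah2 and Ccl17) were under 1 FPKM with Control-ASO, and of the 4 lower genes Castor1 was under 1 FPKM with AclyE14-ASO, so these were measured only through the library where they were high.

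The order of the 10 genes by level depends on the gene length used. In both libraries the deposited FPKM values imply 1 fixed length per gene, which for Acod1 (2623 bases) and Arg2 (1428 bases) equals the merged exons of GENCODE M21. For Slc7a2 it was 18560 bases against 9135, for Azin1 13735 against 6256, for Sat1 4895 against 2774 and for Ass1 2958 against 2414. For Gch1, Arg1, Odc1 and Nos2 it was shorter than the merged exons. With Control-ASO the deposited FPKM put Acod1 first, then Odc1, Gch1, Sat1, Arg2, Slc7a2, Nos2, Ass1, Azin1 and Arg1. Per kilobase of merged exons Acod1 was first and Arg1 last again, but Sat1 (176) stood above Odc1 (128), Slc7a2 (76.0) above Gch1 (47.4), and Azin1 (22.5) above Nos2 (21.1).

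**Figure D5:**
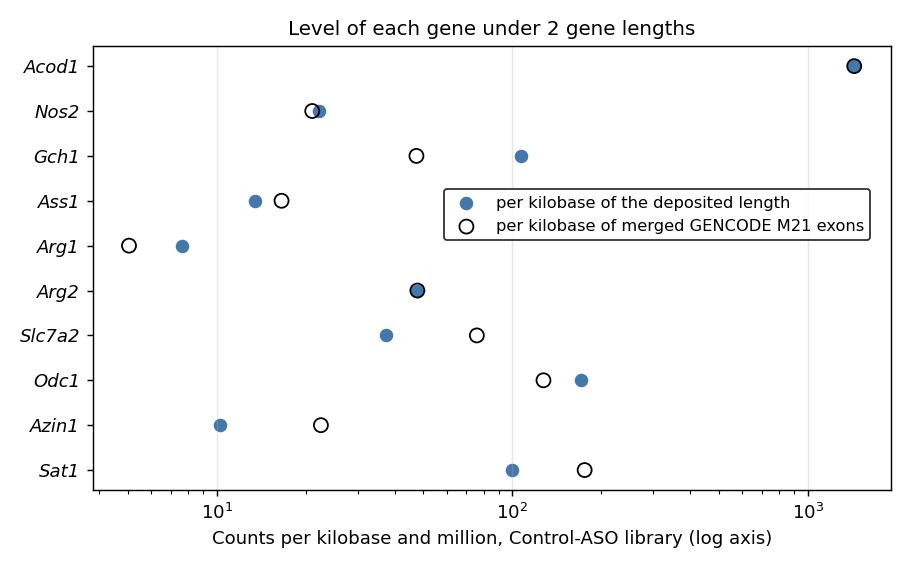
Control-ASO level of each gene in counts per kilobase, scaled to library size as FPKM is (log axis), by the length behind the deposited FPKM (filled) and by the merged exons of GENCODE M21 (open). The symbols coincide for Acod1 and Arg2, and lie farthest apart for Gch1, Azin1 and Slc7a2.

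Ratios of counts per library total between the libraries do not depend on this length, since it is the same in both. The calls and list medians use FPKM with a pseudocount and a filter on mean FPKM, so they do depend on it. Calls by merged exons were not made. Ratios between genes depend on the length too. Arg1 made up 13.8% of the summed FPKM of both arginases with Control-ASO and 16.9% with AclyE14-ASO, and 9.56% and 11.9% per kilobase of merged exons. Nos2 was 2.91 and 3.62 times as high as Arg1 by FPKM, and 4.17 and 5.19 times by merged exons. Acod1 was 64.9 and 44.1 times as high as Nos2 by FPKM, and 68.3 and 46.4 times by merged exons. Odc1 was 5.66 and 16.4 times as high as Azin1 by merged exons. Gch1 was 4.82 and 3.54 times as high as Nos2 by FPKM, but 2.25 and 1.66 times by merged exons.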

How the data were processed

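Per the file headers, the authors deposited raw counts and FPKM per gene, 1 column of each for the Control-ASO and the AclyE14-ASO library. The submitters' processing notes name mm10, HISAT2, edgeR and StringTie 1.3.0, with no role given. FPKM divided by counts had a ratio of 1.11 between the libraries wherever both held over 20 counts, which is the ratio of the count totals, so the deposited FPKM values are scaled to summed gene counts. Symbols came from GENCODE M21 (GRCm38, also called mm10) for 34267 of 34745 identifiers; the listed genes Prmt1 and Pycr3 were not matched.

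Log2 ratios of FPKM + 1 and count ratios with Clopper-Pearson intervals were computed with SciPy 1.17.1, pandas 2.3.3 and NumPy 2.4.6 under Python 3.11.15, and tested on simulated data. Trimmed mean (TMM) factors came from edgeR 4.0.16, similar transcripts from BLAST 2.17.0 and promoters from RefSeq (GRCm38.p6). The 10 genes and the lists were chosen with earlier results of these data known. Named were all 10 genes and, per related list, each gene past 1.5-fold and the 2 most abundant. Genes at 0 counts, the other succinate dehydrogenase subunits, Adh5, Spr, Gclm, Nfe2l2 and Stat3 were added after their values were seen. So were the markers, Oaz1, Oaz2, Srm, Amd1 and Retnla. Some genes that this rule names are not reported here. Dendritic, neutrophil, lymphocyte and erythroid markers are in the closing section.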

Additional observations from a re-analysis of the deposited data

How the results depend on the processing

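The log2 ratio of Odc1 was above 0 and that of Azin1 below 0 under each of the 8 alternatives that change a ratio or a filter, but not every call was kept. With a limit of 2-fold, 0 of the 10 genes were higher and 0 lower, and the related lists held 3 higher and 1 lower (3.18% and 1.55% of all measured genes). With a pseudocount of 5 FPKM the log2 ratio of Azin1 was -0.50, 0 of the 10 genes were lower, and the related lists held 2 higher and 3 lower genes (3.31% and 2.98% of all measured genes). With a pseudocount of 0.1 FPKM they held 8 higher and 7 lower genes (9.09% and 13.7% of all), by counts without a pseudocount 9 higher and 9 lower (9.40% and 14.4% of all), and at a mean of at least 5 FPKM 3 higher and 2 lower (6.29% and 9.60% of all). Centring on the median gene shifted each log2 ratio by 0.13 and gave 0.84 for Odc1, -0.60 for Azin1, 0.24 for the median of the 10 genes and 2 higher genes, Nos2 and Odc1. The log2 ratio of Odc1 was 0.81 with TMM factors and 0.81 with median-of-ratios size factors. Under these 3 scalings 8 of the 10 log2 ratios were above 0 in place of 7, since that of Acod1 turned positive. TMM shifted ratios by 0.10. The merged exon lengths were chosen after seeing the data. Summing counts over genes that overlap on the same strand was not run, because none with counts shares exons with the 10 genes. Protein identities were not computed. No paired analysis was possible because each group has 1 library. Depth limits Arg1 most (160 and 163 counts).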

Other observations

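Of the markers of other blood cells, 3 were higher by 1.5-fold on FPKM + 1 with AclyE14-ASO: Fscn1 (ratio 6.09), S100a8 (2.10) and Pf4 (3.17). Each was 1 of the few measured in its list (3 dendritic, 3 neutrophil and 1 erythroid), beside 7.03% of all measured genes. By counts Csf3r, a neutrophil marker (ratio 1.58), and Lck, a lymphocyte marker (1.63), were past the limit too. Stromal markers were higher in the same library, and their part in these differences was not tested. The sums that follow are over all listed markers of a type, measured or not, with Control-ASO and AclyE14-ASO. Of 12 neutrophil markers 3 were measured (sum of the 12, 26.2 and 50.6 FPKM). S100a9, Ly6g, Elane, Camp and Retnlg were listed at 0 counts in both libraries. Of 10 dendritic cell markers 3 were measured, with Flt3, Xcr1 and Siglech at 0. The 10 summed to 132 and 157 FPKM, mostly Itgax at 121 and 133 FPKM, a gene that macrophages express too. Of 12 lymphocyte markers only Lck was measured, at 3.23 and 5.26 FPKM (sum of the 12, 4.28 and 5.77 FPKM). Cd3e, Cd3d, Cd8a and Ncr1 were at 0. Of 10 erythroid, megakaryocyte and mast cell markers only Pf4 was measured, at 1.29 and 4.10 FPKM (sum of the 10, 1.46 and 4.32 FPKM). Hba-a1, Hbb-bs, Gp9 and Cpa3 were among those at 0.

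The length difference seen for Slc7a2, Azin1 and Sat1 runs through the table. Among 9197 genes with more than 50 counts in the Control-ASO library, the length implied by the deposited FPKM exceeded the merged exons of GENCODE M21 by more than 2% for 70.8%, lay within 2% for 9.29% and was shorter by more than 2% for 19.9%. The length implied for Sat1, 4895 bases, exceeds the merged exons of 2774 bases. Levels of different genes in deposited FPKM can therefore shift by the factor between the lengths, which was 2.03 for Slc7a2, 2.20 for Azin1 and 1.76 for Sat1.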
